A study of Homo sapiens with 4 samples.

Results

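miR-31 is a microRNA (miRNA) encoded in the 9p21 region of the short arm of human chromosome 9, and its rows in a small RNA count table of H661 cells are described here. They were found by name, as all rows called miR-31 after the species prefix and the arm suffix were removed. The rule gave 2 of the 826 listed mature miRNAs, hsa-miR-31-5p and hsa-miR-31-3p, from the opposite arms of the same hairpin, and of these only miR-31-5p had enough counts to be among the 401 miRNAs tested. H661 is an established human lung cancer cell line. The cells received either entinostat at 2.5 µM, a benzamide that inhibits histone deacetylases of class I, or dimethyl sulfoxide (DMSO), its solvent, and both treatments lasted 8 h. Each treatment had 2 libraries, and whether these came from different cultures is not labelled, so the p-values describe variation among 4 libraries that may be technical.

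A miRNA guides Argonaute proteins to messenger RNAs, mainly by pairing of its seed, bases 2 to 8 from the 5′ end, and lowers the output of those messages. A hairpin precursor is cut into a duplex, of which usually one strand, the guide, is kept and the other, the passenger, is degraded. miR-31 lies inside the transcript of MIR31HG, a long non-coding RNA gene, close to MTAP and to the tumour suppressor genes CDKN2A and CDKN2B. Deletions that remove CDKN2A are common in lung cancer and often extend to MTAP, and longer ones reach miR-31. In other tumours the gene has been reported as silenced by promoter methylation or Polycomb, and in lung cancer miR-31 has been described as raised and tumour-promoting, while in breast cancer models it restrained metastasis.

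The sequences, from RefSeq on GRCh38.p14, show which molecules the counts stand for. The first line is mature miR-31-5p with its seed in capitals, and the second is the whole hairpin with the mature 5p arm in capitals. The last 2 lines are the mature forms, seeds in capitals, of the other miRNAs listed from within 10 Mb of miR-31.
miR-31-5p: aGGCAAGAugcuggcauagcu
MIR31 hairpin: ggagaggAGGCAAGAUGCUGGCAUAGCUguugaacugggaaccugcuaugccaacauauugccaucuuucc
miR-491-5p: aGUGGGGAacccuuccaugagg
miR-4473: cUAGUGCUcuccguuacaagua

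The miR-31-5p sequence was compared with those of other miRNAs. Its 21 bases take up positions 8 to 28 of the hairpin. Of the 2370 mature names in the RefSeq table, 0 others share its seed GGCAAGA. Only miR-6809-5p shares bases 2 to 7, and that name is not among the listed rows. RefSeq sequences were found for 729 of the 826 listed names. Among the 728 besides miR-31-5p itself, the nearest were let-7d-5p, miR-222-3p and miR-301b-3p, each 8 base changes, insertions or deletions away. Many other miRNAs have close copies that can trade reads, and no such copy of miR-31-5p was found among these names.

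In the genome, the hairpin lies on chromosome 9, from 21512115 to 21512185 on the minus strand (GRCh38, GENCODE release 29), inside intron 1 of MIR31HG on the same strand. The near edge of MTAP, which encodes an enzyme of methionine salvage, lies 290.4 kb away. That of CDKN2A, which encodes cell cycle inhibitors, lies 455.6 kb away, and that of CDKN2B, its relative, 490.7 kb away. On the other side, IFNE, an interferon gene inside the span of MIR31HG, lies 29.8 kb from the hairpin. DNA copy number, the MIR31HG transcript and the messages of these genes were not measured here.

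**Figure D1:**
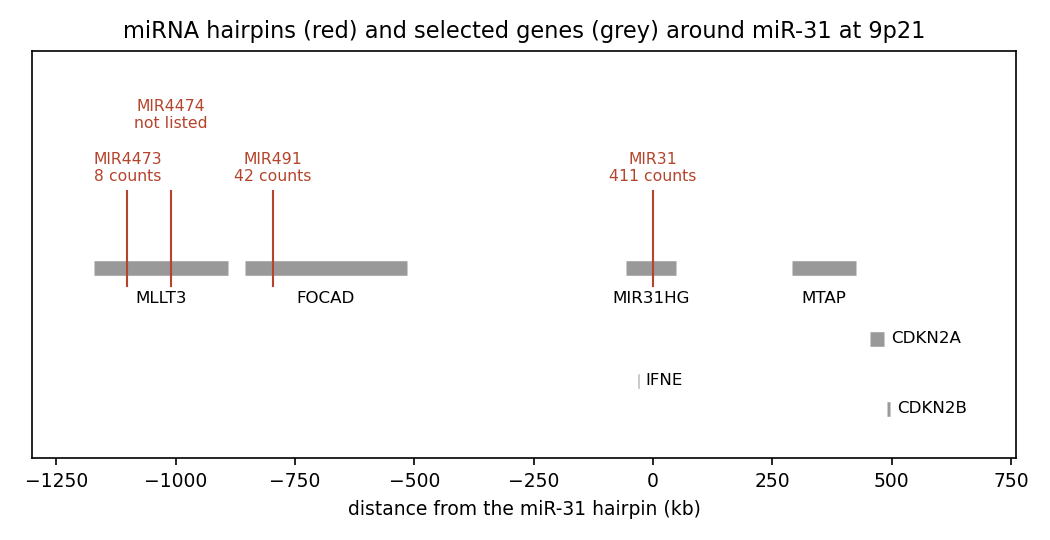
Map of the miRNA hairpins (red lines, with counts summed over 4 libraries and over listed arms) and of selected genes (grey bars), drawn to scale against distance from the miR-31 hairpin in kb. miR-31 holds 411 counts, against 42 for miR-491 and 8 for miR-4473.

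Library totals were 547875 and 753104 counts with entinostat and 938559 and 561485 counts with DMSO. Every entry of the count table is 0 or at least 2, with 0 entries of 1 and 381 of 2 among 3304, so an entry of 0 may stand for no read or for a lone read. Of the 7 epithelial miRNA names followed as markers, 4 were listed. Summed, they reached 77.3 and 59.3 CPM after scaling between libraries (42 and 45 counts) with entinostat, against 56.7 and 40.97 CPM (53 and 23 counts) with DMSO, and miR-141, miR-200a and miR-429 had no row. Among names for other cell types, miR-126, known from endothelium, was well represented, at 1223 and 1293 counts with entinostat and 1692 and 1121 with DMSO. The blood names miR-142, miR-144, miR-223 and miR-451a had no row, and miR-486, also of that list, had 102 and 183 counts with entinostat and 216 and 122 with DMSO. The mesenchymal names summed to 116 and 119 CPM (63 and 90 counts) with entinostat and 72.8 and 94.4 CPM (68 and 53 counts) with DMSO. Both the epithelial and the mesenchymal sums were thus higher in each entinostat library than in either DMSO library, as was miR-31-5p below. The same order was seen for 20.7% of the 401 tested miRNAs taken singly. The part of these sums in the miR-31-5p result was not tested. The epithelial gap was narrow, at 59.3 against 56.7 CPM between the nearest libraries. Of the epithelial rows, miR-200c-3p and miR-205-5p had a higher mean with entinostat, and miR-203a-3p and miR-200b-3p a lower one. Over 4 libraries miR-205-5p held only 15 counts and miR-200b-3p only 3, and neither was tested. For miR-203a-3p, with 42 counts, the libraries of the treatments overlapped. Of the 7 mesenchymal rows, 5 held under 10 counts over 4 libraries and 2 were tested, and miR-214 of that list had no row. Summed counts were for the muscle names 9 and 5 with entinostat and 9 and 3 with DMSO, and for liver miR-122 0 and 0 with entinostat and 5 and 0 with DMSO.

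miR-31-5p was present in all 4 libraries at a moderate level. It had 81 and 130 counts with entinostat, against 122 and 75 counts with DMSO. In CPM, counts per 1000000 counts of the library, this was 148 (exact Clopper-Pearson 95% interval 117 to 184) and 173 (144 to 205) with entinostat. With DMSO it was 130.0 (108 to 155) and 134 (105 to 167). Neither entinostat library was as low as a DMSO library, but the 4 intervals overlap, as the highest lower bound was 144.2 and the lowest upper bound 155.2. These intervals cover counting error only and not variation between libraries. The labels name no molecular identifiers to mark PCR copies, so the intervals may be too narrow even for counting error. By level, miR-31-5p ranked 203rd and 197th in the entinostat libraries and 216th and 213th in the DMSO libraries, above about 74 to 76% of the listed rows in each.

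**Figure D2:**
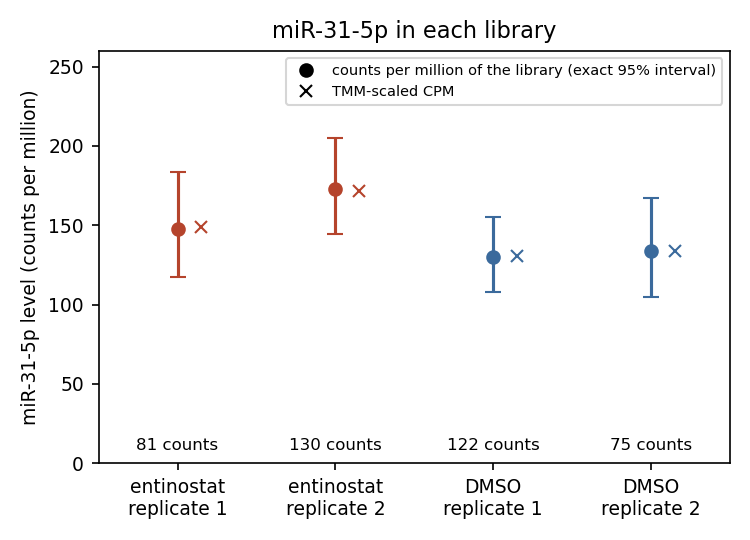
Level of miR-31-5p in each library, in CPM (counts per 1000000 counts of the library; circles, bars are exact 95% intervals) and as CPM after composition scaling (crosses), with the raw counts printed below. The entinostat circles lie at 148 and 173 and the DMSO circles at 130.0 and 134, and the bars of all 4 overlap.

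A change of miR-31-5p with entinostat was not established. After TMM scaling, by a trimmed mean of log ratios between libraries, its level was 160.2 ± 15.8 CPM with entinostat and 132.1 ± 2.14 CPM with DMSO (SD, n = 2 each). The entinostat libraries were 1.15-fold apart and the DMSO libraries 1.02-fold, while the lower entinostat library was 1.12-fold above the higher DMSO library. The fold was 1.22 with a 95% interval of 0.944 to 1.58 (log2 fold change 0.29, SE 0.16), and the edgeR quasi-likelihood test gave a Benjamini-Hochberg adjusted p of 0.605 (0.112 unadjusted). That interval leaves out a doubling and a halving. The test called 0 of 401 miRNAs at an adjusted p under 0.05, 0.0% of those tested, and 27, or 6.73%, had an unadjusted p under 0.05. An edgeR likelihood ratio test called 4 and DESeq2 called 0, with miR-31-5p in neither set of calls. Both entinostat libraries lay above both DMSO libraries for miR-31-5p, which was so for 20.7% of all tested miRNAs, and 40.6% had no overlap in either direction. A two-sided exact permutation test on its 4 levels gave p = 0.333, the smallest that 2 libraries against 2 allow.

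The size of the difference rested in part on the second entinostat library. Without it the log2 fold change was 0.17 (95% interval -0.34 to 0.69), against 0.36 (-0.07 to 0.79) without the first. Leaving out DMSO replicate 1 gave 0.26 and leaving out DMSO replicate 2 gave 0.27. With upper quartile factors it was 0.41, but these factors also moved the median over the 401 miRNAs to 0.12, against 0.00466 with TMM. Relative to that median, miR-31-5p stood at 0.29 with upper quartile factors and 0.28 with TMM.

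**Figure D3:**
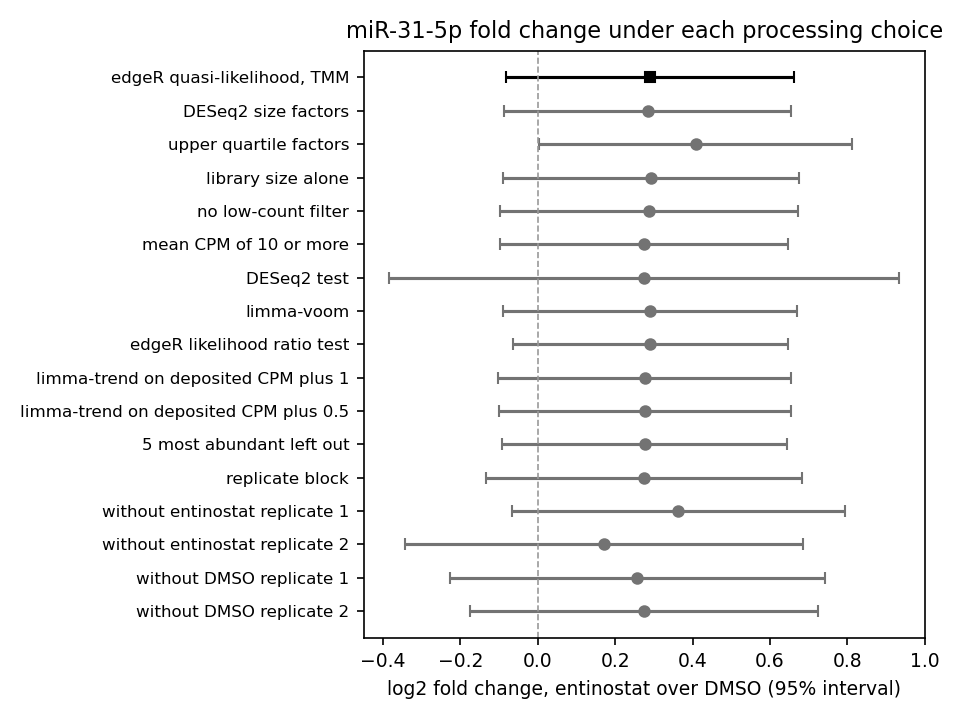
Log2 fold change of miR-31-5p, entinostat over DMSO, with 95% intervals, in the edgeR quasi-likelihood test with TMM scaling (black square) and under 16 other processing choices (grey circles). All values lie between 0.17 and 0.41, and upper quartile scaling is the setting whose interval stays above 0, from 0.003 to 0.81.

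Among all tested miRNAs, miR-31-5p ranked 46th by log2 fold change, with 11.2% above it, and 74th by unadjusted p. The 45 tested miRNAs with a mean of 100 to under 200 CPM, miR-31-5p among them, ran from -0.60 to 0.86 with a median of -0.02, and 5 of them lay above miR-31-5p. Their median SE was 0.18, near the 0.16 of miR-31-5p.

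**Figure D4:**
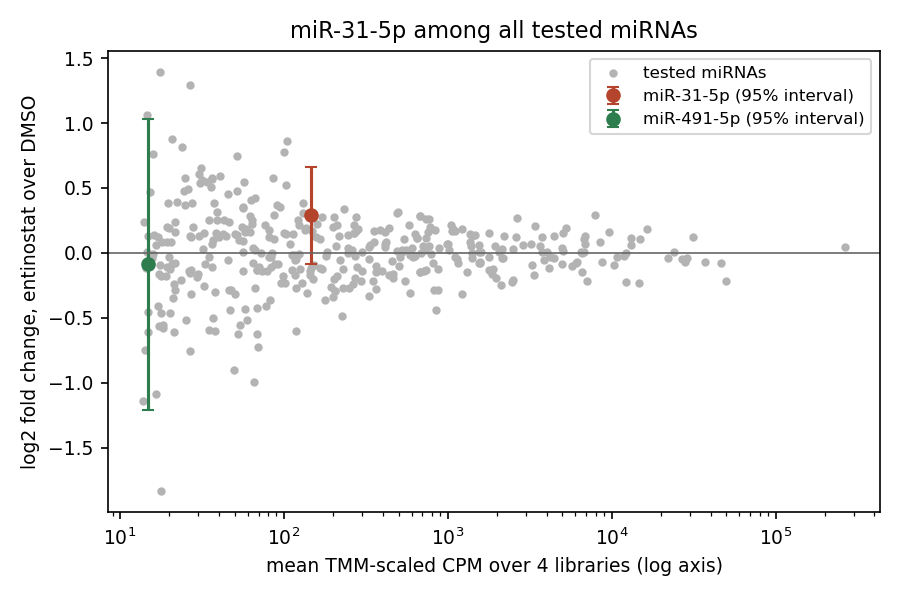
Log2 fold change, entinostat over DMSO, against mean level over 4 libraries (TMM-scaled CPM, log axis) for the 401 tested miRNAs (grey), with miR-31-5p (red) and miR-491-5p (green) and their 95% intervals. miR-31-5p lies at 0.29 and miR-491-5p at -0.09, and both intervals include 0.

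The 3p arm, the passenger strand, was almost absent. miR-31-3p had 0 and 0 counts with entinostat and 0 and 3 counts with DMSO, so its only counts came from DMSO replicate 2. Over all libraries the 3p arm made up 3 of the 411 counts of both arms, or 0.730% (exact 95% interval 0.151 to 2.12%). In DMSO replicate 2 alone it was 3 of 78 counts, or 3.85% (0.800 to 10.8%), a 5p to 3p ratio of 25 with a counting interval of 8.23 to 124. No ratio can be stated for the other libraries, where an entry of 0 may hide a lone read.

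With 0.5 added to each count, the log2 ratio of 5p over 3p was 7.35 and 8.03 with entinostat and 7.94 and 4.43 with DMSO. In 3 of the 4 libraries that value is set by the added 0.5 and by the 5p count. The mean difference was 1.5 (two-sided exact permutation p = 0.667, where 0.333 is the smallest possible), and without DMSO replicate 2 it was -0.25. The 2 libraries against 2 and the near-absence of 3p counts leave no usable test of arm use between the treatments. miR-31 was also below the mean of 10 counts in each arm asked of hairpins tested jointly with limma, where 0 of 94 hairpins were called and 9 had an unadjusted p under 0.05. With a mean of 50 counts asked instead, 3 of 41 hairpins were called (lowest limma adjusted p = 0.00725), and miR-31 was not among the 41.

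Among hairpins with both arms listed, miR-31 lay toward the more one-sided ones by counts pooled over the libraries. Both arms were listed for 190 hairpins, and 115 of these, miR-31 included, had at least 411 counts. The median share of the minor arm was 3.01% over the 115, against 0.730% for miR-31, and 25 hairpins had a smaller one. That place is uncertain, as the interval for miR-31 ran from 0.151 to 2.12%. Its 3p counts came from DMSO replicate 2 only, where the share was 3.85%. Hairpins with an arm that had no row were left out. Of the 115 hairpins, 52 had the 5p arm as the major one, as miR-31 did.

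**Figure D5:**
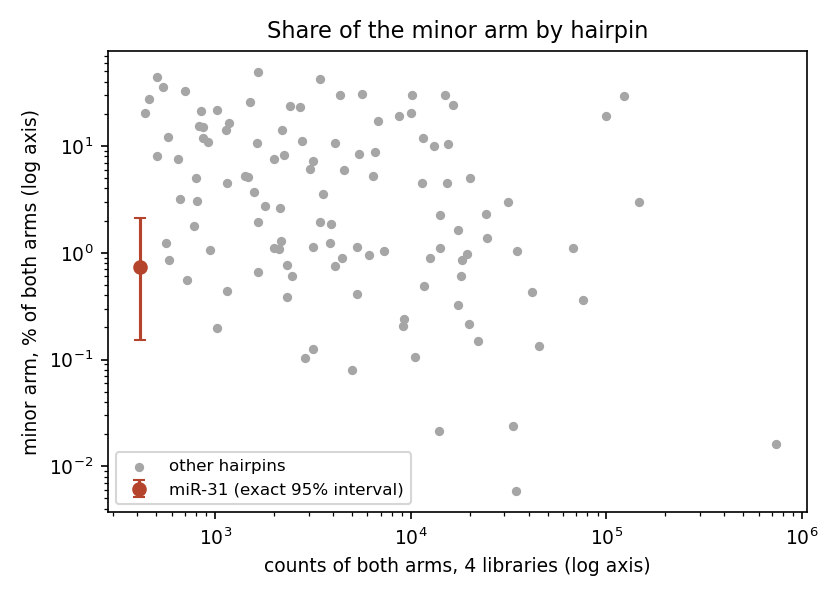
Share of the minor arm, in percent of the counts of both arms, against those counts summed over 4 libraries (both log axes) for the 115 hairpins with at least as many counts as miR-31. miR-31 (red, exact 95% interval) lies at 0.730% and the median of the 115 is 3.01%. Hairpins with an arm that had no row are left out.

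Within 10 Mb of miR-31, GENCODE places 6 other miRNA hairpins, and 2 of them had a listed row. miR-491-5p comes from an intron of FOCAD, a gene described as a tumour suppressor in glioma, 796 kb from miR-31 on the side away from CDKN2A. It had 6 and 13 counts with entinostat and 14 and 9 counts with DMSO. That is 11.04 and 17.14 CPM with entinostat and 14.98 and 16.03 CPM with DMSO, with overlapping groups. Its log2 fold change was -0.09 (95% interval -1.21 to 1.03, edgeR adjusted p = 0.969), an interval too wide to leave out a doubling or a halving, and it turned positive under upper quartile scaling (0.04) and when entinostat replicate 1 was left out (0.14).

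miR-4473, from an intron of MLLT3, a gene of a transcription elongation complex, had 0 and 4 counts with entinostat and 0 and 4 with DMSO, too few to test. The hairpins MIR3152, MIR4474, MIR876 and MIR873 had no listed row. On the level scale, miR-31-5p at a mean of 146.2 CPM was thus the most abundant of the 4 rows from this region, ahead of miR-491-5p at 14.8 CPM. Recovery differs between sequences, so this order is one of library counts and need not be that of the RNAs in the cells.

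In level, miR-31-5p stood between miR-151b and miR-378e. Above it were miR-641 at a mean of 151.8 CPM over 4 libraries, miR-7977 at 149.9 and miR-151b at 148.0 CPM. Below it were miR-378e at 145.3 CPM, miR-1268b at 145.1 and miR-1268a at 143.8 CPM. The libraries of each of these 6 overlapped those of miR-31-5p, so the order among them lies within the spread. For all 6 the entinostat and DMSO libraries overlapped too, while those of miR-31-5p did not. Of all tested miRNAs, 40.6% had no such overlap in either direction. miR-1268a and miR-1268b, which are near copies, had the same counts in 3 of 4 libraries, and miR-151b and miR-378e also belong to families of similar sequence, so their levels are uncertain singly.

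Over the 4 libraries, the pattern of miR-31-5p was compared with that of the 236 other tested miRNAs of at least 100 CPM, by the root mean square difference of log2 levels centred on each miRNA's own mean. The closest were miR-4521 at 0.0375, miR-409-5p at 0.0379, miR-495-3p at 0.0422 and miR-15b-5p at 0.0449, against a median of 0.180 over all 236. miR-4521 was at 2761 and 2978 CPM with entinostat and 2398 and 2367 CPM with DMSO. miR-495-3p was at 206 and 244 CPM with entinostat and 194 and 198 CPM with DMSO. The 4 were chosen for this likeness, so their order of libraries and the sign of their fold change follow from the choice. Their log2 fold changes lay between 0.21 and 0.27. Without entinostat replicate 2 they were 0.0715 for miR-495-3p, 0.0921 for miR-15b-5p, 0.113 for miR-409-5p and 0.207 for miR-4521. In the full fit the 4 edgeR adjusted p-values ran from 0.595 to 0.640. The points are 4 libraries whose scaling the miRNAs share.

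miR-31 was also set beside miRNAs described with it in earlier work, in lists recalled without a database, some of whose hairpins enter with both arms. For miRNAs reported as raised in lung cancer, 0 of 25 tested members were called, 15 had a log2 fold change above 0 and 10 below, and the median was 0.13, against 0.00466 over all 401, of which 51.9% lay above 0. The list's median was 0.00929 without entinostat replicate 2, 0.0657 without DMSO replicate 1, 0.0616 without DMSO replicate 2, 0.0822 in limma-voom and 0.24 with upper quartile factors. In 7 members both entinostat libraries lay above both DMSO libraries, and in 7 both lay below, where all tested miRNAs gave 20.7% and 20.0%, and 1 member had an unadjusted p under 0.05. Within that list miR-31-5p had the 4th highest fold change and the 14th highest level. The members with the lowest p were miR-92a-1-5p, a passenger strand of the miR-17 cluster, at 42.3 and 27.7 CPM with entinostat and 66.4 and 60.6 CPM with DMSO, the hypoxia-induced miR-210-3p at 298 and 304 CPM with entinostat and 245 and 255 CPM with DMSO, and miR-155-5p, known from immune cells, at 71.8 and 63.3 CPM with entinostat and 40.7 and 53.4 CPM with DMSO. Their log2 fold changes were -0.90, 0.27 and 0.54, each with an edgeR adjusted p of 0.595. The most abundant, miR-92a-3p and miR-21-5p, were at -0.07 and 0.19. Without 1 library miR-92a-3p was at -0.00419 (DMSO replicate 1) or -0.18 (DMSO replicate 2), and miR-21-5p at 0.0292 (entinostat replicate 1), 0.32 (entinostat replicate 2) or 0.0657 (DMSO replicate 1). miR-155-5p was at 0.31 without DMSO replicate 1, and miR-92a-1-5p at -0.60 without entinostat replicate 2.

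For miRNAs reported as silenced by promoter methylation or Polycomb, miR-31 among them, 0 of 23 tested members were called, with 14 above 0, 9 below and a median of 0.06. Over all 401 tested miRNAs, 51.9% lay above 0 and the median was 0.00466. The median of the silenced list was 0.17 with upper quartile factors, 0.11 without DMSO replicate 1 and 0.11 without entinostat replicate 2. In 8 of the 23 both entinostat libraries lay above both DMSO libraries, and in 3 both lay below, where all tested miRNAs gave 20.7% and 20.0%, and 1 had an unadjusted p under 0.05. The lowest p belonged to miR-148a-5p, at 129 and 125 CPM with entinostat and 71.7 and 76.6 CPM with DMSO (log2 fold change 0.78, SE 0.18, edgeR adjusted p = 0.316). It was followed by the epithelial miR-200c-3p at 42.3 and 46.1 CPM with entinostat and 33.2 and 24.9 CPM with DMSO, and the neuronal miR-9-5p at 1331 and 1262 CPM with entinostat and 1100 and 1188 CPM with DMSO. In the likelihood ratio test miR-148a-5p was called higher. It is the minor arm of its hairpin, with 275 counts over 4 libraries against 4296 for the 3p arm. The most abundant, miR-26a-5p and miR-127-3p, were at -0.04 and -0.07. Without 1 library miR-26a-5p ran from -0.0840 (entinostat replicate 1) to -0.0110 (entinostat replicate 2), with -0.0692 without DMSO replicate 2. Likewise miR-127-3p was at 0.0857 without entinostat replicate 1 and -0.26 without entinostat replicate 2, and miR-9-5p at 0.11 without DMSO replicate 1, against 0.18 with all libraries.

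For miRNAs reported, as miR-31 was, to restrain metastasis, 0 of 15 tested members were called, with 13 above 0, 2 below and a median of 0.13. Over all 401 tested miRNAs, 51.9% lay above 0 and the median was 0.00466. In 5 of the 15 the unadjusted p was under 0.05, against 6.73% of all tested miRNAs. In 7 both entinostat libraries lay above both DMSO libraries, and in 1 both lay below, against 20.7% and 20.0% of all tested. The list holds miR-31-5p itself and both arms of some hairpins, and was chosen with earlier results of these data known. Whether it differs from the other tested miRNAs was not tested. The median ranged widely with the processing, at 0.26 with upper quartile factors, 0.24 in limma-trend with either pseudocount, 0.23 with the replicate block, 0.196 with the 5 most abundant miRNAs left out and 0.21 without DMSO replicate 1. miR-31-5p had the 7th highest fold change of the 15. Besides miR-148a-5p, the lowest p belonged to miR-146b-3p, at 34.97 and 42.18 CPM with entinostat and 20.3 and 8.91 CPM with DMSO (log2 fold change 1.30), and to miR-22-3p, at 1185 and 993 CPM with entinostat and 1375 and 1327 CPM with DMSO (-0.32), both with an edgeR adjusted p of 0.595. Both miR-148a-5p and miR-146b-3p are minor arms. For miR-146b the 3p arm held 75 counts over 4 libraries and the 5p arm 1347. The most abundant, miR-30a-5p and miR-30a-3p, were at 0.13 and 0.12. miR-30a-3p was at 0.0332 without entinostat replicate 1, 0.18 without entinostat replicate 2 and 0.0369 without DMSO replicate 1, and miR-30a-5p at 0.0829 without DMSO replicate 2. miR-146b-3p was at 2.09 without DMSO replicate 1, and miR-22-3p at -0.196 without entinostat replicate 2 and called lower without entinostat replicate 1 (-0.46).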

How the data were processed

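Per the labels' protocols, total RNA was taken with TRIzol and small RNA libraries were made with New England Biolabs reagents. The submitters' processing notes name bcl2fastq 2.18. Which aligner, counting tool and miRNA annotation followed is not given in the sources used here. The authors deposited whole-number counts per mature miRNA name, and CPM values equal to the count over the column total times 1000000, within 0.0001 CPM in 100% of entries.

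Counts were filtered with filterByExpr (minimum count 10, minimum total 15), scaled by TMM and tested with edgeR 4.0.16 in R 4.3.3, treatment being the only term. Calls needed a Benjamini-Hochberg adjusted p under 0.05. The biological coefficient of variation was 8.05%. The test was checked on simulated tables. DESeq2 1.42.0 and limma 3.58.1 gave alternatives, and SciPy 1.17.1 the exact tests and intervals. Hairpins were placed with GENCODE release 29, which matched 772 of 826 names, and need not be the authors' annotation. The miRNAs, lists and tests were chosen with earlier results of these data known. Named miRNAs were both miR-31 arms, the listed miRNAs within 10 Mb, the 3 nearest in level on each side, the 4 closest in pattern and, per list, the 3 of lowest p and the 2 most abundant.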

Additional observations from a re-analysis of the deposited data

How the results depend on the processing

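The log2 fold change of miR-31-5p stayed above 0 and uncalled under all 16 alternatives, between 0.17 and 0.41, with adjusted p-values from 0.424 (upper quartile factors) to 0.999 (DESeq2). Without 1 library it ran from 0.17 to 0.36. With the replicate number as a block it was 0.27 (adjusted p = 0.826) and 0 miRNAs were called. The labels do not say what a shared number means, so the block is not read as a pairing. Deviations of same-numbered libraries correlated at -0.116 over 401 miRNAs. With so few libraries that value cannot decide whether they were paired. The count of called miRNAs was 0 except with the likelihood ratio test (4), and ran from 0 to 5 without 1 library, the 5 without entinostat replicate 1. The arm difference was 1.1 with 1 added in place of 0.5, 1.5 with the replicate block and between -0.25 and 3.26 without 1 library. With the hairpin filter of 50 counts, which miR-31 does not reach, 3 of 41 hairpins were called. With upper quartile factors the sign turned for miR-127-3p (0.0477), miR-26a-5p (0.0726), miR-491-5p (0.0355) and miR-92a-3p (0.0416). Without 1 library miR-127-3p ran from -0.263 to 0.0857 and miR-491-5p from -0.0791 to 0.135, both positive without entinostat replicate 1, and miR-491-5p failed the count filter without entinostat replicate 2 or DMSO replicate 1. Without entinostat replicate 1 miR-22-3p was called (-0.46, edgeR adjusted p = 0.0383). The cause of these changes was not tested. Counts of the 3p arm and of miR-4473 were too low to test.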

Other observations

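Across chromosome 9, 35 listed names come from hairpins on that chromosome only, 4 of them within 10 Mb of miR-31 and 31 farther away. The 4 near rows held 0.0159 and 0.0195% of the counts with entinostat and 0.0145 and 0.0162% with DMSO. The 31 others held 0.663 and 0.671% with entinostat and 0.607 and 0.640% with DMSO, led by miR-27b-3p. miR-31-5p was the 4th most abundant of the 35, after miR-27b-3p, miR-126-3p and miR-23b-3p. Of the 12 that were tested, 7 had a log2 fold change above 0 and 0 were called by edgeR. Among all tested miRNAs, 51.9% lay above 0. The chromosome 9 set was chosen after values had been seen.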
